A study of Mus musculus with 12 samples.

Results

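Wild-type mouse prostate was described from 6 of the 12 RNA sequencing libraries of the series, those labelled +/+ at the gene that the series targets. They were chosen by that label alone, and every one of the 23284 genes of the deposited table was ranked by its mean over these libraries. The other 6 libraries, from null mice, entered no value. The tissue was whole prostate of mice aged 4 months, of a hybrid 129/SvImJ and C57Bl/6J background, snap frozen at harvest and untreated as far as the labels say. RNA was selected by its poly-A tail. The labels do not separate the lobes of the gland, and they leave unsaid whether each library is a different animal or a pool, so the spread given below is that between these libraries and may be technical.

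The mouse prostate is an androgen-dependent exocrine gland made of several lobes. Its luminal cells secrete proteins, zinc, citrate and polyamine-binding proteins into the seminal fluid, basal cells line the ducts, and smooth muscle and fibroblasts surround them. Among its known secretions are the transglutaminase that cross-links seminal proteins into the copulatory plug, the lipocalin probasin and several protease inhibitors.

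The values were deposited on a log2 scale, from 1.07 to 21.25 in these libraries, with no counts, so the sequencing depth is unknown and no counting interval could be given. The 1123 olfactory receptor genes, which stand in for genes that prostate does not use, had a median of 2.85. Their 95th percentile, 3.52, was taken as the detection limit, and a gene is called detected where all 6 libraries lay above it. That was so for 15160 genes (65.1%), of which 7 were olfactory receptors. Over all genes the median level was 6.16, and 15.3% had a mean of at least 10. Values were taken back to the linear scale and summed per library for the shares given below, which count signal and not molecules, because a long transcript gives more fragments than a short one. The median of detected genes rose from 7.03 for transcripts under 1 kb to 9.05 for those of 6 kb or more. Levels of different genes are therefore compared per kb of the longest annotated transcript, known for 22766 genes (97.8%). An order on the deposited scale is an order of signal only. Per kb the median of detected genes ran the other way, from 7.89 under 1 kb to 6.07 at 6 kb or more. An order per kb is therefore not free of a trend with length either, and short transcripts stand higher on it.

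The start regions of the secretory genes that lead the ranking are shown first, since a few such genes held much of the signal. They are the genes among the highest 6 with a single start in RefSeq and a sequence that could be printed, namely 9530053A07Rik, Tgm4, Pbsn and 9530002B09Rik. Each runs from 250 bases before the start to 50 after it, 5′ to 3′ on the gene's strand, from RefSeq in build GRCm38.p6, which is not the mm9 build of the submitters' processing notes. Capitals mark the TATA box letters TATAAA and the hexamer AGAACA, a core of steroid hormone response elements, each searched on both strands (TTTATA and TGTTCT), with no overlap between the motifs. The regions are chr7:28129216-28129515 on the plus strand, chr9:123034491-123034790 on the plus strand, chrX:77853451-77853750 on the minus strand and chr4:122689009-122689308 on the plus strand, in the order printed.
9530053A07Rik: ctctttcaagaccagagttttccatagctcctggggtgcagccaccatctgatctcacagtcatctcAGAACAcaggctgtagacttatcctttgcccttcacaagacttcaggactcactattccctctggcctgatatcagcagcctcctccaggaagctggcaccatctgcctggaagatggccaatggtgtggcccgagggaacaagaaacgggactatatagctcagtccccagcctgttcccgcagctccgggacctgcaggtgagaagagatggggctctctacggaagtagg
Tgm4: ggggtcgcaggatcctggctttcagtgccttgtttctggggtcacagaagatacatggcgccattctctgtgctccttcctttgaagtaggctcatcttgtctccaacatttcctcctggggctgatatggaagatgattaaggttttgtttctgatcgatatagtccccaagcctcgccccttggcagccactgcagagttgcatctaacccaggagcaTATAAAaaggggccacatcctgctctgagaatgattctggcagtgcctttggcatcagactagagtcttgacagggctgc
Pbsn: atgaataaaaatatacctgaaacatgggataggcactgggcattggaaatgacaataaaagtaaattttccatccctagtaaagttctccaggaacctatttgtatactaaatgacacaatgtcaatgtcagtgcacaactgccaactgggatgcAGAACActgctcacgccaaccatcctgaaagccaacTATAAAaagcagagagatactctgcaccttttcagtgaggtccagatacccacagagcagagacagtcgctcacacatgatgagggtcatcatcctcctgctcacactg
9530002B09Rik: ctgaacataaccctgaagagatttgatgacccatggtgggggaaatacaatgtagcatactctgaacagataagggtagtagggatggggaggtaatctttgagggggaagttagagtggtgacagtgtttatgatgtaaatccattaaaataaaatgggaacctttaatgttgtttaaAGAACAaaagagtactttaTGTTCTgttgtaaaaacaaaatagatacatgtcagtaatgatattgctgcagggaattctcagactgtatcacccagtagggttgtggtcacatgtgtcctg

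The Tgm4 region held 1 TATAAA, at -30 from the start, and no AGAACA. The Pbsn region held 1 TATAAA at -59 and 1 AGAACA. The region of 9530002B09Rik held 2 AGAACA matches, 1 on each strand, and that of 9530053A07Rik held 1. Of all 32851 RefSeq promoters of this length, 13.6% held TATAAA and 19.0% held AGAACA. For the 14813 promoters of detected genes the shares were 7.8% and 12.9%. Promoters were found for 69 of the 100 highest genes, 92 in all, and their shares were 19.6% and 25.0%. For 20 of the 30 highest genes, with 22 promoters, they were 22.7% and 27.3%. A 6-base match is a description of these letters, and binding was not measured.

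A few genes of secreted proteins held a large part of the signal of wild-type prostate. The highest 6 genes held 22.6% ± 1.3 (SD, n = 6) of the linear sum, and their identity was the same in each of the 6 libraries. All 6 are on the list of prostate secretions, which was chosen with earlier results of these data known. The highest 10 held 24.7% ± 1.2 (SD, n = 6), the highest 100 held 36.0% ± 1.1 (SD, n = 6), and the highest 1000 held 58.9% ± 0.87 (SD, n = 6). Between 449 and 539 genes made up 50% of the sum and between 5505 and 5746 made up 90%. At the other end, the genes not detected held 0.37% to 0.41%.

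9530053A07Rik ranked first, with 20.94, 20.87, 20.96, 21.19, 21.25 and 21.23 in libraries 1 to 6. RefSeq lists the name FCGBP, that of an IgG Fc-binding, mucin-like protein of secretions, as its synonym. It alone held 10.6% to 12.9% of the linear sum, 11.9% ± 0.98 (SD, n = 6). Libraries 4 to 6 were all higher than libraries 1 to 3, a difference of 0.3. The gene with the symbol Fcgbp is a separate entry, at 13.19, and 8.6% of the 50-base words of the 9530053A07Rik transcript recur in other annotated genes, most of them in Fcgbp.

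Tgm4, the prostate transglutaminase of the copulatory plug, ranked second. Its values were 19.47, 19.49, 19.47, 19.65, 19.67 and 19.64, and its share was 4.16% ± 0.14 (SD, n = 6). Sbp, which encodes a spermine-binding secretory protein, followed with 19, 19.07, 19, 19.21, 19.23 and 19.2, a share of 3.05% ± 0.13 (SD, n = 6). For both genes, libraries 4 to 6 lay above libraries 1 to 3 by less than 0.2. Of the Sbp transcript, 33.9% of the 50-base words recur in other genes, chiefly its neighbour in sequence Sbpl, whose own level was 7.78.

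Pbsn, the androgen-regulated lipocalin probasin, had 17.9, 18.02, 17.94, 18.06, 18.02 and 17.99, and its libraries overlapped between the sets. Spink3, a Kazal-type serine protease inhibitor of seminal fluid, had 17.48, 17.5, 17.59, 17.91, 17.95 and 17.96, with libraries 4 to 6 all higher. 9530002B09Rik, for which RefSeq gives the synonym Vpp1, had 17.36, 17.39, 17.42, 17.38, 17.44 and 17.44. Its SD of 0.034 was the smallest of the highest 6. Pbsn held 1.39% of the sum, Spink3 held 1.17% and 9530002B09Rik held 0.929%.

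Per kb of transcript the same 6 genes led, in another order. Sbp, whose transcript has 1002 bases, came first with 7.17% ± 0.39 (SD, n = 6) of the per-kb sum and a per-kb level of 19.12. Spink3 (729 bases) followed at 18.19, Pbsn (902 bases) at 18.14, and 9530053A07Rik (7922 bases) and Tgm4 (2785 bases) both at 18.09. These 4 neighbours lay within 0.1 of each other, while the SD of Spink3 between libraries was 0.231 and that of 9530053A07Rik 0.17, so their order is not resolved. 9530002B09Rik (803 bases) was sixth at 17.72. The highest 10 genes held 27.9% of the per-kb sum and the highest 100 held 42.6%. Of the highest 10, 7 were among the highest 10 per kb, and of the highest 100, 65.

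**Figure D1:**
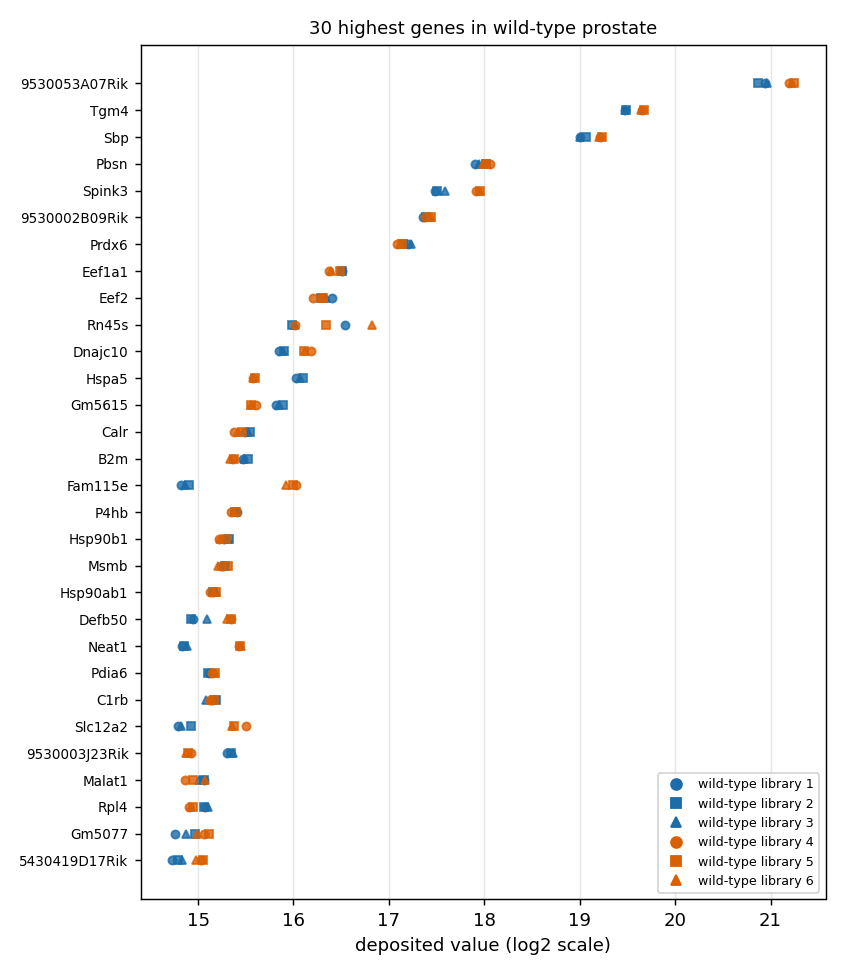
Deposited value (log2 scale, horizontal axis) of the 30 genes of highest mean, in rank order from the top; each point is 1 of the 6 wild-type libraries, blue for libraries 1 to 3 and orange for 4 to 6. 9530053A07Rik stands apart near 21, and Fam115e is the row in which the colours lie farthest apart.

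**Figure D2:**
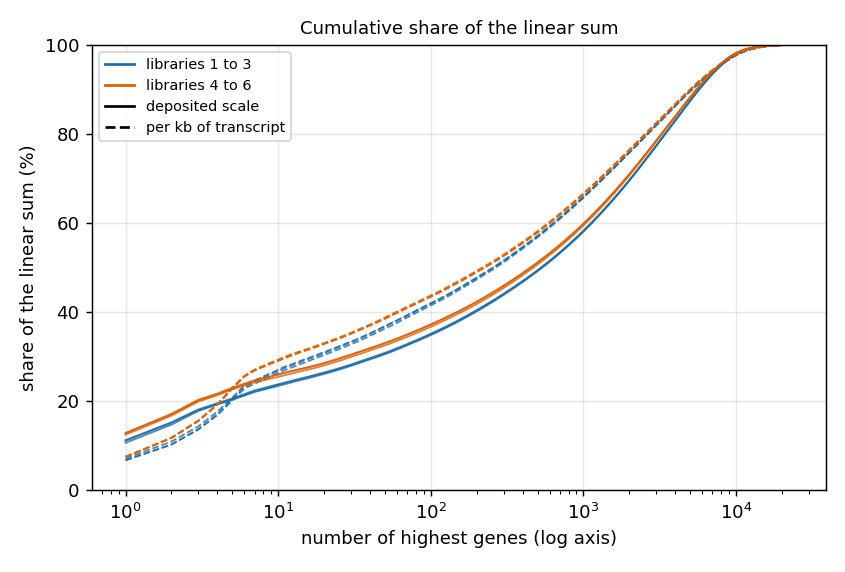
Share of the linear sum (%) held by the given number of highest genes (log axis), 1 line per library; solid lines use the deposited scale and dashed lines values per kb of transcript. The first gene holds 10.6% to 12.9% on the deposited scale and 6.69% to 7.54% per kb, and the orange lines of libraries 4 to 6 run above the blue ones of libraries 1 to 3 over most of the range.

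Other secretory genes formed a long tail below these. Of 47 measured genes on a list of prostate secretions, 39 were detected, and the median of all 47 was 10.5. The whole list held 22.6% to 25.8% of the linear sum, and its 41 genes below the highest 6 held 1.33% to 1.81%. Msmb, which encodes beta-microseminoprotein, had 15.26, 15.28, 15.26, 15.24, 15.31 and 15.21, and with only 562 bases it ranked eighth per kb. Defb50, a beta-defensin of the antimicrobial peptide family, had 14.95, 14.93, 15.09, 15.35, 15.35 and 15.3, and ranked seventh per kb. Azgp1, the zinc-alpha-2-glycoprotein, reached 14.24, Agr2, a protein disulfide isomerase family member of secretory epithelia, 14.3, and Glb1l3, a beta-galactosidase-like gene, 14.8. Clu, which encodes the chaperone clusterin, stood at 12.46. Not detected on this list were Cd177, Wfdc15b, Bglap2, Crisp1, Ren1, Pip, Wfdc10 and Crisp3.

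In the protease inhibitor and antimicrobial families a smaller share of genes was detected than the 65.1% of all genes. Of 13 Spink genes 6 were detected, and they held 1.09% to 1.36% of the sum, almost all of it through Spink3. Spink5, the multi-domain inhibitor of skin-type serine proteases, was next at 13.22, followed by Spink8 at 8.54. Of 15 Wfdc genes 7 were detected, with Wfdc3 at 13.47 and Wfdc2 at 7.5. Of 61 defensin genes 7 were detected, Defb50 first and Defb1 at 12.71, with Defb10 at 5.72. Of 63 serpins 22 were detected, led by Serpine2, an inhibitor of thrombin and plasminogen activators, at 11.8 and Serpinb6a at 11.65. The detected shares were 46.2% for Spink, 46.7% for Wfdc, 11.5% for defensin and 34.9% for serpin genes. Of 28 genes whose symbol starts with Klk, the tissue kallikreins and Klkb1, only Klk8 was detected in all 6 libraries, at 4.47 ± 0.295 (SD, n = 6). Klk1b22 had the highest mean of these genes, 5.77. It was at 8.65, 8.74 and 8.69 in libraries 4 to 6 but under the detection limit in libraries 1 to 3.

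Beyond the secretions, the highest 30 genes held housekeeping, complement and noncoding transcripts. Prdx6, a peroxiredoxin that reduces phospholipid hydroperoxides, ranked seventh with 17.2, 17.15, 17.23, 17.09, 17.14 and 17.12. The translation elongation factors Eef1a1 and Eef2 had means of 16.46 and 16.31. Rn45s, the ribosomal RNA precursor, was the most uneven of the 30 within the sets, at 16.54, 15.98, 16.02, 16.02, 16.34 and 16.82. In a library made by poly-A selection that RNA is not a target, and its share ran from 0.346% to 0.603%. Gm5615, named Pate9 in RefSeq, stood at 15.72, B2m, the light chain of class I histocompatibility molecules, at 15.43 and Fam115e, named Tcaf3 in RefSeq, at 15.42.

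The nuclear noncoding RNAs Neat1 and Malat1 had 15.15 and 15, and Neat1, with 20771 bases, ranked 515 per kb. C1rb and Gm5077, named C1s2 in RefSeq, belong to the complement proteases C1r and C1s and had 15.14 and 14.96. They lie next to each other in the genome. Of the 94 of the 100 highest genes with a RefSeq place, 2 adjacent pairs were found, this one and the metallothioneins Mt2 and Mt1. 9530003J23Rik, with the RefSeq synonym Lyzf1 of the lysozyme family, had 15.12, and 60.5% of the C1rb words recur in other genes, most in C1ra.

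The endoplasmic reticulum, where secreted proteins are translocated, folded and glycosylated, was strongly represented. Of 42 listed genes of this machinery all 42 were detected and 41 had a mean of at least 10, against 15.3% of all genes, and their median was 12.65. They held 2.41% to 2.79% of the linear sum. Hspa5, the lumenal chaperone BiP, had 16.03, 16.1, 16.07, 15.58, 15.6 and 15.58, so libraries 4 to 6 were all lower. The chaperone calreticulin, Calr, had a mean of 15.47 and Hsp90b1, the lumenal HSP90, 15.27. Among disulfide isomerases P4hb reached 15.39, Pdia6 15.14, Pdia3 14.87 and Pdia4 13.45. Dnajc10, an ER disulfide reductase that was not on the list, ranked eleventh at 16.01.

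Translocation and glycosylation genes followed. Sec61a1, the channel subunit, had 13.57, the oligosaccharyltransferase subunits Rpn2, Rpn1 and Ddost had 13.92, 13.4 and 13.11, and Ssr4 of the translocon-associated complex had 13.28. Creld2, an isomerase-like gene of the unfolded protein response, had 13.24 and was lower in libraries 4 to 6 (difference -0.53). The single member under 10 was Sec61g, a small channel subunit, at 7.28.

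Transporters made up a modest and even part of the signal. Of 355 solute carrier genes 262 were detected, 73.8% against 65.1% of all genes, and they held 1.49% to 1.56% of the sum. Slc12a2, the sodium-potassium-chloride cotransporter of secretory epithelia, led with 14.79, 14.93, 14.82, 15.5, 15.38 and 15.36, the libraries 4 to 6 again higher. The amino acid transporters Slc38a10 and Slc1a5 had 13.51 and 13.37, and the mitochondrial phosphate carrier Slc25a3 had 12.62. Per kb, Slc12a2 at 12.42 stayed ahead of Slc25a3 at 11.93 and Slc1a5 at 11.91, which did not differ beyond their spread.

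The genes that move ions and fluid included pumps, channels and exchangers. Of 32 listed, 26 were detected, holding 0.46% to 0.574%. The sodium pump subunit Atp1b1 had 13.86. Atp12a, the non-gastric proton-potassium pump, had 12.88, 12.94, 12.93, 13.21, 13.22 and 13.18, and Atp6v1c2, a subunit of the vacuolar proton pump, 13.07. Car2, a carbonic anhydrase, had 12.19, the potassium channel Kcnk1 12.12, the anion exchanger Slc26a4 11.41 and the calcium-activated chloride channel Ano1 11.09. Cftr, the cyclic AMP-gated chloride channel, was not detected by this rule, with 2.42, 3.93, 3.52, 4.23, 4.33 and 4.31. Of 11 aquaporins 6 were detected, led by Aqp1 at 10.11 and Aqp5 at 6.57, while Aqp2, Aqp3, Aqp4, Aqp6 and Aqp12 were not.

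Of pumps and ABC transporters a larger share was detected than the 65.1% of all genes. Of 63 genes of the P-type and vacuolar ATPase families 51 were detected (81.0%), 27 of them at 10 or more, against 15.3% of all genes. Of 50 ABC transporters 42 were detected (84.0%). They were led by Abca5 at 12.09, Abcc3, an organic anion exporter, at 11.64 and Abca3, a lipid transporter, at 11.6.

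Zinc handling was led by the metallothioneins, small zinc-binding proteins. Mt1 had 14.65, 14.55, 14.66, 14.77, 14.77 and 14.8, and Mt2 had 14.15, 14.11, 14.14, 14.3, 14.38 and 14.38. Per kb Mt2 at 15.21 was above Mt1 at 14.58, and Mt3 stood at 11.36. The order of Mt1 and Mt2 per kb rests on the longest annotated transcripts, of 1085 bases for Mt1 and 511 for Mt2. On the deposited scale Mt1 was the higher. Of 25 listed zinc genes 23 were detected, with Slc39a5 and Slc30a3 as the exceptions. Slc39a7, which releases zinc from the ER and Golgi, had 13.04, the plasma membrane importer Slc39a8 11.67, and Slc39a1, the importer best known from human prostate, 10.34. Of the exporters, Slc30a7 had 11.32 and Slc30a2 had 11.21. Slc30a2 was lower in libraries 4 to 6 (difference -0.54).

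Of 23 listed genes of citrate metabolism 21 were detected and 14 had a mean of at least 10, against 15.3% of all genes. The median of all 23 was 10.7, against 6.16 over the table. Cs, citrate synthase, had 11.7, 11.78, 11.74, 11.79, 11.75 and 11.77. Acly, the cytosolic enzyme that splits citrate, had a mean of 11.71 with an SD of 0.019. Mdh1, the cytosolic malate dehydrogenase, led at 13.01. The mitochondrial citrate carrier Slc25a1 had 10.7. Of the plasma membrane carboxylate carriers, Slc13a5 and Slc13a2 were not detected and Slc13a3 was at 4.59.

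Of 15 measured genes of polyamine metabolism 12 were detected, and the median of all 15 was 8.3. Mat2a, which makes the methyl donor S-adenosylmethionine, led with 14.02, 14.14, 14.03, 14.25, 14.16 and 14.15. Odc1, the first enzyme of polyamine synthesis, had a mean of 10.92, its partner Azin1, the antizyme inhibitor, 11.75, and the spermidine synthase Srm 10.54. Sms, the spermine synthase, had 9.0, and Sat1, the acetyltransferase of polyamine breakdown, 11.22. Those not detected were Oaz1, Amd1 and Amd2.

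Of 30 listed genes of the androgen axis 27 were detected, and the median of all 30 was 10.35. Of the chaperones that hold steroid receptors, Hsp90ab1 had a per-kb level of 13.83, Fkbp4 had 11.77 and Hsp90aa1 had 8.42.

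Among genes known as androgen targets, Tmprss2, a membrane serine protease, had 13.28, 13.25, 13.33, 13.63, 13.6 and 13.6. Slc45a3, the prostein gene, had a mean of 12.61, Fkbp5, the co-chaperone induced by steroids, 12.09, and Mme, the neprilysin peptidase, 13.32. The 5-alpha-reductases that make dihydrotestosterone, Srd5a2 and Srd5a1, had 7.0 and 6.61. Klk1, Hsd3b6 and Hsd17b3, the last an enzyme of testicular testosterone synthesis, were not detected.

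Transcription factor genes of prostate, secretory epithelium and stroma ranged from near the top of the table to under the detection limit. Of 62 listed factors 58 were detected (93.5%), against 65.1% of all genes. A mean of at least 10 was reached by 24, against 15.3% of all genes. The median of all 62 was 9.12, against 6.16 over the table. That of the 58 detected was 9.18, against 8.44 for all detected genes. These medians are on the deposited scale, without division by length. Ehf, an ETS factor of epithelia, was the highest of the list with 14.14, 14.25, 14.18, 14.62, 14.6 and 14.56. Hoxb13, the posterior homeobox factor that marks prostate, had 12.93, 12.8, 12.95, 13.06, 13.1 and 13.14. Per kb Ehf at 12.23 and Hoxb13 at 11.86 remained the first of the list, followed by the stress factor Atf4 at 11.58 and Xbp1, the secretory cell factor, at 11.46.

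Other leading factors included the pioneer factor Foxa1, with 12.29, 12.32, 12.26, 12.61, 12.62 and 12.58, and the zinc finger factors Gata3 and Gata2, with means of 12.33 and 12.3. Tbx3 had 12.78, Atf6, the ER stress sensor, 12.61, and Bhlha15, a factor of exocrine secretory cells, 12.25. Grhl1 and Grhl2, of the epithelial grainyhead family, had 11.38 and 11.16 and Spdef, an ETS factor of secretory epithelia, 10.85. Of steroid receptors, Nr3c1, the glucocorticoid receptor, had 9.88, Esr1, the estrogen receptor alpha, 9.17, and Pgr, the progesterone receptor, 5.33. Not detected were Pax2, Grhl3, Foxa2 and Foxa3.

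Homeobox genes of the Hox clusters differed by cluster. Of the B cluster 9 of 10 were detected, of the A cluster 9 of 11 and of the D cluster 8 of 9. Of the C cluster 0 of 9 were detected, the highest being Hoxc8 at 3.58. After Hoxb13 came Hoxb9 at 10.92, Hoxa10 at 10.35 and Hoxd13 at 9.11. Hoxd13 was lower in libraries 4 to 6 (difference -0.76). Of 6 Gata genes 4 were detected, of 45 Fox genes 24, of 25 ETS genes 22 and of 47 nuclear receptor genes 37.

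**Figure D3:**
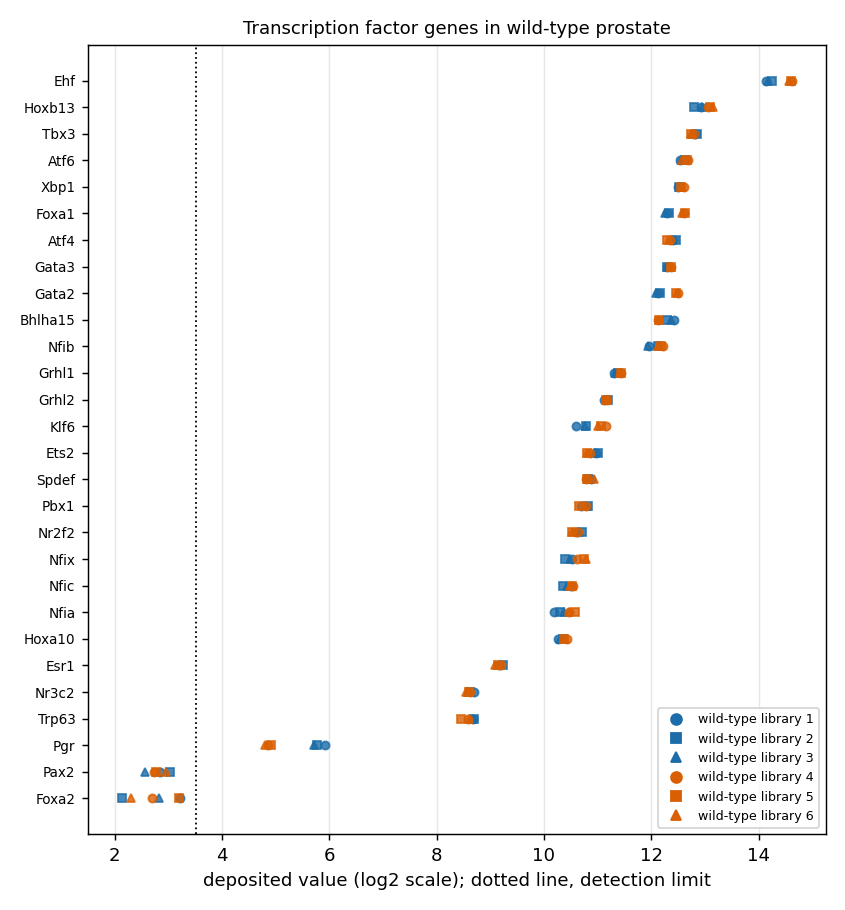
Deposited value (log2 scale) of transcription factor genes, ordered by mean: the 22 highest of the list and, chosen after their values were seen, Trp63, Esr1, Nr3c2, Pgr, Pax2 and Foxa2. Points are the 6 wild-type libraries (blue for 1 to 3, orange for 4 to 6) and the dotted line is the detection limit of 3.52. Ehf is highest, and Pax2 and Foxa2 lie under the limit.

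The prostate markers were on lists chosen with earlier results of these data known, so their ranks are no independent check of the tissue. Tgm4, Sbp and Pbsn ranked 2, 3 and 4 and Hoxb13 ranked 192 of 23284 genes, in every library above the detection limit. In bulk tissue, fewer cells of a type and less RNA per cell cannot be told apart, so the following gives levels of marker lists and no cell numbers.

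Luminal and smooth muscle markers gave the largest shares among cell type lists. Of 16 luminal markers all 16 were detected, holding 0.46% to 0.495% of the linear sum. Cd24a, a surface glycoprotein, led at 14.23, followed by the simple-epithelium keratin Krt18 at 13.82 and the adhesion molecule Epcam at 13.15. Krt8, the partner of Krt18, had 12.21, 12.13, 12.15, 12.28, 12.42 and 12.49. Muc1, an apical mucin, was the lowest at 4.26.

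Of 15 basal markers all 15 were detected, at 0.059% to 0.0606%. Krt5, the basal keratin, lay between 9.79 and 10.02 in the 6 libraries. Trp63, the master regulator of basal cells, had 8.68, 8.69, 8.65, 8.58, 8.46 and 8.61, and Krt14 had a mean of 7.23. Per kb the luminal keratins Krt18 and Krt8 stood at 13.3 and 11.31 and the basal keratins Krt15 and Krt5 at 9.58 and 8.78. Of 52 keratin genes 16 were detected.

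Stroma was led by contractile genes. All 13 smooth muscle markers were detected with means of at least 10, at 0.574% ± 0.047 (SD, n = 6) of the sum. Myh11, smooth muscle myosin, had 14.34, Tagln 14.08, Acta2, smooth muscle actin, 14.06 and Des, desmin, 12.92. All 15 fibroblast markers were detected, at 0.205% to 0.218%, with Gsn at 13.73, the proteoglycan Dcn at 12.82 and the collagen gene Col3a1 at 11.43. All 14 endothelial and pericyte markers were detected, none at 10 or more, with Eng at 9.11, Pecam1 at 8.77 and the pericyte gene Rgs5 at 6.27.

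Immune markers were lower. All 14 myeloid and all 14 lymphoid markers were detected, at 0.0245% to 0.0448% and 0.01% to 0.0227%. Lyz2, the macrophage lysozyme, had 10.66 and the complement genes C1qb and C1qa had 9.61 and 9.56. Igj, the joining chain of secreted IgA and IgM, led the lymphoid list with 11.32, 11.38, 11.33, 10.33, 10.21 and 10.23. The T-cell gene Cd3e was at 5.45 and the B-cell gene Cd79a at 5.83. Of 8 mast cell markers 7 were detected, between 4.06 and 6.41.

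Neuroendocrine cells, the rarest epithelial type of the gland, left a faint signal. Of 12 markers 7 were detected, holding 0.00132% to 0.00327%. The granule proteins Chga and Chgb had 4.9 and 4.85 and Syp, synaptophysin, 6.16, while Insm1, Neurod1 and Calca were among the 5 not detected. Eno2 and Syp are also expressed in nerve, whose list had 11 of 12 detected, with the myelin gene Mbp at 10.09 and the neuronal filament gene Prph at 6.93.

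Markers of tissues around the gland were mixed. Of 10 urothelial and urethral markers 7 were detected. The uroplakins Upk1b and Upk1a were high, with 11.78, 11.76, 11.8, 11.95, 11.94 and 11.96 for Upk1b and a mean of 11.41 for Upk1a. Their partners in the urothelial plaque were lower, with Upk2 at 5.18 and Upk3a not detected. The urothelial keratins Krt20 and Krt13 were not detected either. Of 10 seminal vesicle genes 5 were detected, and Svs1, Svs3a, Svs3b, Sva and Svs6 were not. Of 9 skeletal muscle genes 8 were detected, led by Acta1 at 11.34, with Ckm at 7.56 and Myh4 not detected. Of 10 adipocyte genes 8 were detected, led by Lpl at 9.23. Of 14 genes of tissues not sampled 3 were detected, Gfap at 5.09, Ttr at 5.06 and Cyp17a1 at 4.39, and Alb and Ins2 lay at 2.86 and 2.77.

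**Figure D4:**
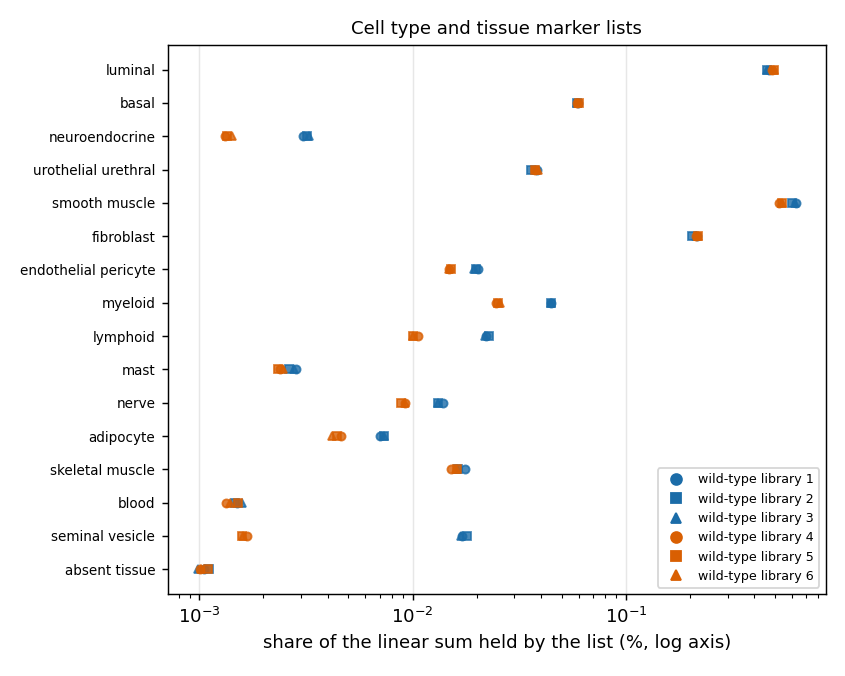
Share of the linear sum (%, log axis) held by each marker list, 1 point per wild-type library, blue for libraries 1 to 3 and orange for 4 to 6. Luminal and smooth muscle lists lie near 0.5%, and the seminal vesicle, neuroendocrine, myeloid and lymphoid lists show the blue libraries to the right of the orange ones.

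Some genes that nearly every cell uses had low values. Gapdh, a glycolytic enzyme, had 5.51, 5.42, 5.57, 5.02, 5.41 and 5.15, and Ppia, the cyclophilin A gene, had a mean of 6.2. Oaz1, the antizyme that destabilises Odc1, was at 2.89, Amd1, which makes the aminopropyl donor of polyamines, at 3.12, and the ribosomal protein gene Rpl26 at 2.71, all undetected. The globin genes Hba-a1 and Hba-a2, Hbb-b1 and Hbb-b2 lay between 2.9 and 3.04 while Alas2, the erythroid heme enzyme, was at 7.8. Several of these genes have copies or pseudogenes. In the 50-base words of the longest transcript, Gapdh shared 27.2% with other annotated genes, Oaz1 20.1%, Amd1 87.6% and Hba-a2 86.9%. The detected genes Odc1 and Sms shared 42.2% and 28.7%. The sources used here do not say how the authors treated reads that fit several places, so the levels of these genes are uncertain.

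Ribosomal protein genes were also grouped by shared words. The share is taken over the longest annotated transcript, so it depends on that transcript's length too. Rps15a, for instance, with 5179 bases, shared 6.3%. Whether shared sequence bears on the level was not tested. The 81 ribosomal protein genes, of which 78 were detected, held 1.2% to 1.53% of the sum. Those sharing under 10% of their words (17 genes) had a median of 10.63, those with 10% to 50% (48 genes) 9.23 and those with 50% to 90% (16 genes) 10.45. Eef1a1, at 16.46, shared 59.2%. Rpl11 was unlike the other genes of wide spread in that its libraries differed within the sets, at 7.92, 6.95, 8.23, 9.48, 9.38 and 7.29.

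The 6 libraries formed 2 groups, libraries 1 to 3 and libraries 4 to 6, called sets. An earlier analysis of the same values defined them from these values, the labels do not name them, and no test between them is made. Over the 3556 genes whose mean reached 10, the median absolute difference between libraries was 0.0383 to 0.0692 within a set and 0.103 to 0.129 across sets. Among detected genes, 11 to 20 differed at least 2-fold within a pair of the same set and 345 to 379 across sets. The most even genes, among those with a mean of at least 12, were Atp5a1, of the mitochondrial ATP synthase, with an SD of 0.015, Gnas, Adipor1, Ppp1ca and 1110003E01Rik.

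The sets did not overlap at 6612 of 15160 detected genes (43.6%). Libraries 1 to 3 were higher at 2941 (19.4%) and libraries 4 to 6 at 3671 (24.2%), and the median difference of all detected genes was 0.013. Non-overlapping sets that also differed at least 2-fold were found for 286 genes (1.89%), 195 higher in libraries 1 to 3 (1.29%) and 91 higher in libraries 4 to 6 (0.6%). With a mean of at least 10 there were 16 of 3556 such genes (0.45%), 8 in each direction. These shares are a description of how these libraries divide.

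Secretory genes of high level divided in both directions. Of the 39 detected secretory genes, 24 were higher in libraries 4 to 6 and 9 in libraries 1 to 3, against 24.2% and 19.4% of all detected genes. Of the 3556 genes with a mean of at least 10, 1408 were higher in libraries 4 to 6 and 555 in libraries 1 to 3. Pigr, the receptor that carries IgA across epithelia, had 13.8, 13.81, 13.82, 15.3, 15.34 and 15.29. Mmp7, the epithelial protease matrilysin, had 13.64, 13.63, 13.7, 15.18, 15.13 and 15.18. Fam115e had 14.82, 14.9, 14.86, 16.03, 15.99 and 15.92. The remaining genes with a mean of at least 10 that were at least 2-fold higher in libraries 4 to 6, with no overlap, were Glb1 by 1.76, Mug1, a murinoglobulin protease inhibitor, by 1.23, Pdzk1 by 1.22, and Rnase4 and Acrbp, both by 1.07.

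Libraries 1 to 3 were higher for Rnase1, the secreted pancreatic-type ribonuclease, with 13.25, 13.2, 13.27, 10.67, 10.67 and 10.76. Kcnk3, an acid-sensitive potassium channel, had 12.18, 12.05, 12.1, 10.4, 10.32 and 10.39. Spink5 had 13.68, 13.81, 13.75, 12.74, 12.68 and 12.66. The class II antigen presentation genes H2-Eb1, H2-Aa, H2-Ab1 and Cd74 and the immunoglobulin gene Igj were the other genes with a mean of at least 10 that were at least 2-fold higher in libraries 1 to 3, with differences (libraries 4 to 6 minus libraries 1 to 3) of -1.18, -1.14, -1.13, -1.02 and -1.09.

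Less abundant genes also differed between the sets, some of them by more than the genes above. Svs2, a seminal vesicle clotting protein, had 11.17, 11.26, 11.15, 4.53, 4.81 and 4.52. Svs5, of the same gland, had 9.2, 9.21, 9.22, 4.32, 4.0 and 4.12, and Pate4, a seminal vesicle and prostate secreted protein, had means of 8.49 and 4.32. Of the 5 detected seminal vesicle genes, 3 were higher in libraries 1 to 3 and 2, Ceacam10 and Gm4956, in libraries 4 to 6, against 19.4% and 24.2% of all detected genes. In the other direction, Abpb, a secretoglobin of the androgen-binding protein family, had 8.23, 8.46, 8.27, 10.89, 10.9 and 10.87. Lcn2 and Ltf, iron-binding antimicrobial proteins, had means of 7.41 and 9.75 and of 5.37 and 7.86. Wfdc12 was higher by 3.4. Klk1b22, a kallikrein, with 3.21, 2.3, 3.04, 8.65, 8.74 and 8.69, and Upk3b, a uroplakin of mesothelium, with means of 2.81 and 7.51, were the only genes undetected in 1 set and at 6 or more in each library of the other, a level chosen after the values were seen.

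Some marker lists of other cell types moved with the sets. Of 14 myeloid markers 14 were higher in libraries 1 to 3, and of 14 lymphoid markers 13, against 19.4% of detected genes. Of 14 endothelial and pericyte markers 11 were higher there, of 8 detected adipocyte markers 6 and of 7 detected neuroendocrine markers 6. Prph, at 8.31, 8.05, 8.35, 5.65, 5.67 and 5.55, and the catecholamine enzymes Th and Dbh, with differences of -1.8 and -1.64, belong to neurons, while the Schwann cell gene Sox10 differed by less than 0.1. Of 13 smooth muscle markers 9 were higher in libraries 1 to 3 and 1 in libraries 4 to 6. Of 16 luminal markers 10 were higher in libraries 4 to 6, against 24.2%, and 2 in libraries 1 to 3. All 13 smooth muscle markers and 12 of the 16 luminal ones had a mean of at least 10. At that level 555 of 3556 genes were higher in libraries 1 to 3 and 1408 in libraries 4 to 6. Of 3 detected mesothelial markers 2 were higher in libraries 4 to 6, against 24.2%. These were Msln by 1.36 and Krt8, also a luminal marker, by 0.24, while Wt1 overlapped. The mesothelial markers Upk3b and Lrrn4, not detected by the rule, were higher there by 4.7 and 2.14. Some other lists divided in both directions or little. Of 15 fibroblast markers 5 were higher in libraries 1 to 3 and 6 in libraries 4 to 6, and of 15 basal markers 4 and 6. Of 7 detected mast cell markers the counts were 2 and 1, and of 8 detected skeletal muscle markers 0 and 3. The seminal vesicle list ran from 0.0169% to 0.018% of the sum in libraries 1 to 3 and from 0.00159% to 0.00168% in libraries 4 to 6. The part of these cell types and of seminal vesicle RNA in the other differences between the sets was not tested.

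**Figure D5:**
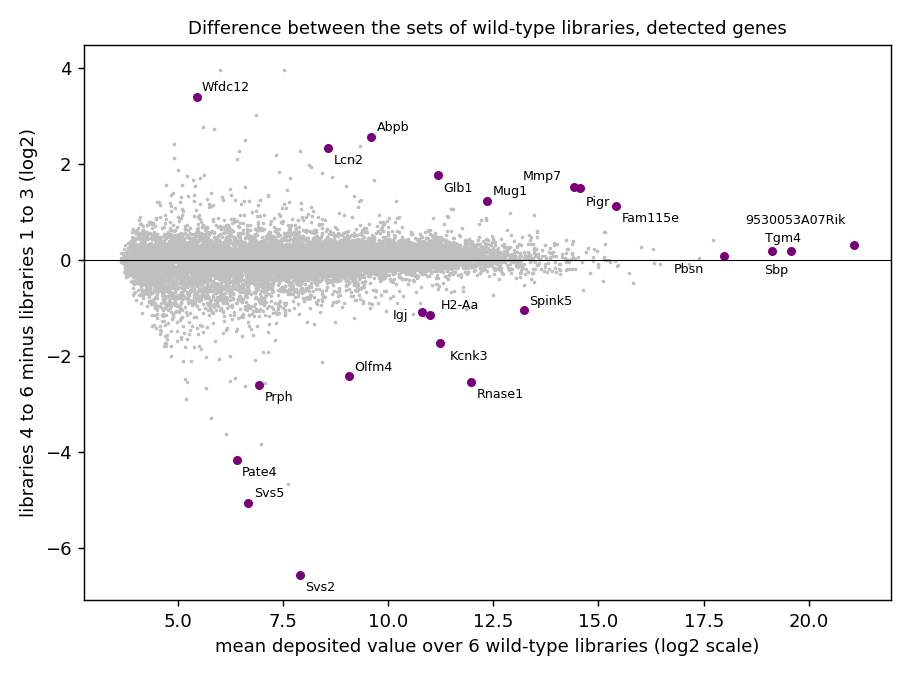
Difference between the means of libraries 4 to 6 and 1 to 3 (log2, vertical axis) against the mean over all 6 (log2 scale, horizontal axis) for the 15160 detected genes, grey; purple points are genes labelled after their values were seen. The leading secretory genes Tgm4, Sbp and Pbsn lie close to 0, Pigr, Mmp7 and Fam115e lie above 1, and Svs2 lies lowest.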

How the data were processed

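Whole prostate RNA of 6 wild-type and 6 null libraries was poly-A selected and sequenced on a HiSeq machine with TruSeq preparation, per the labels' protocols. CASAVA 1.8.2, TopHat2 2.0.4, TopHat, Cufflinks 2.0.2, DESeq and build mm9 are named without roles, per the submitters' processing notes. The authors deposited 1 table of log2 values, whose form resembles variance-stabilised counts. The transformation and the normalization across libraries are not given in the sources used here, and the depth is unknown. The 6 columns of the null libraries were not used.

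Values were used as deposited, with no pseudocount and no test between groups; where a count is of detected genes, all 6 libraries lay above the detection limit. For shares, 2 was raised to each value. Transcript lengths are those of the longest basic transcript in GENCODE M21 (GRCm38), matched by symbol for 20858 genes and by RefSeq synonym for 1908. Python 3.11.15, NumPy 2.4.6, pandas 2.3.3 and matplotlib 3.10.9 were used, and the counting of sets and shares was tested on simulated data. The library sets, the members and the 26 gene lists (488 genes measured of 498) and 20 families were chosen with earlier results of these data known. The plan for naming genes covered the markers Tgm4, Pbsn, Sbp and Hoxb13, the 30 highest genes, the first 5 of each list or family and undetected members. It also covered the genes of highest and lowest SD and the 10 highest per kb. Not all of these are named in the text. Others were chosen after their values were seen, as were the shared-word comparison and the promoter motifs. The pattern for ribosomal protein genes was corrected after the first run, since it had taken in kinases. The series' targeted gene and a few listed genes are not reported here; totals over the whole table include them, and list totals include the listed ones. Libraries were numbered in the order of deposit.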

Additional observations from a re-analysis of the deposited data

How the results depend on the processing

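Dividing by transcript length moved the shares, from 24.7% to 27.9% of the sum for the highest 10 genes and from 36.0% to 42.6% for the highest 100. It also moved 29 of 30 named levels. Taking off the floor, using detected genes only, quantile normalization, and ranking by the median or in each library gave 24.7% to 24.9% for the highest 10 and 35.9% to 36.3% for the highest 100. Libraries 1 to 3 alone gave 23.6% ± 0.205 and 35.0% ± 0.155 (SD, n = 3), and libraries 4 to 6 alone gave 25.8% ± 0.342 and 37.0% ± 0.317 (SD, n = 3). The sets differed by more than the spread within either, and that difference is part of the spread over all 6. Leaving out 1 library gave 24.4% to 25.0% and 35.7% to 36.2%. The number of detected genes, 15160, ran from 14251 with a limit of 4 to 16154 with the mean above the limit, and from 15217 to 15264 without 1 library. Restricting the sets' comparison to genes with a mean of at least 10 left 1963 of 3556 not overlapping, 555 higher in libraries 1 to 3 and 1408 in libraries 4 to 6. The count is smaller because fewer genes were counted, and the share is larger, 55.2% against 43.6%. After quantile normalization 6599 did not overlap. No paired analysis was possible because a single group was described, its library numbers come from the order of the labels and no test between groups was made. The unknown depth limits what can be said of genes near 3.52.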
